A study of Mus musculus with 11 samples.

Results

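The comparison described here sets the gastric corpus mucosa of GIF/ATP4B-DTR mice against that of GIF-DTR mice, across every expressed gene outside the Y chromosome. It takes 6 of the 11 samples of the series, 3 of each line, chosen by their genotype label, and leaves the control samples out. The lines were engineered so that chief cells, or chief and parietal cells, can be ablated. In GIF-DTR the diphtheria toxin receptor (DTR) is named for Gif (intrinsic factor, current symbol Cblif), and in GIF/ATP4B-DTR for Gif and for Atp4b together, so both groups carry the chief cell construct and only GIF/ATP4B-DTR carries the parietal one. RNA was sequenced in bulk from poly(A)-selected, stranded libraries. The labels give no toxin dose, time after toxin, age or sex for either group, and no statement that the 3 samples of a line came from separate animals. The p-values below therefore measure the spread between these samples, which may be technical.

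Parietal cells acidify the stomach with the H+/K+ ATPase, a pump of a catalytic subunit (Atp4a) and a glycosylated partner (Atp4b), supported by potassium and chloride channels and by a basolateral chloride-bicarbonate exchanger. They secrete in response to histamine, acetylcholine and gastrin, are packed with mitochondria and burn fatty acids. Chief cells at the gland base store pepsinogen and, in the mouse, intrinsic factor, while the lamina propria between the glands holds macrophages, fibroblasts, strands of smooth muscle and vessels. In bulk RNA, fewer cells of a type and less RNA per cell cannot be told apart.

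The libraries held 21.2 to 27.1 M counts (M, mega), so that 3 counts correspond to 0.112 to 0.153 counts per mega-count (CPM, with TMM scaling factors, the trimmed-mean method of edgeR). Corpus genes were present in all 6 samples, with Pgc (pepsinogen C) between 2364 and 23325 CPM. Among 13984 genes tested with edgeR's quasi-likelihood test, 307 (2.20%) passed a Benjamini-Hochberg adjusted p of 0.05 and are said below to have risen or fallen. Of these, 262 (1.87% of genes tested) were lower and 45 (0.322%) were higher in GIF/ATP4B-DTR. The median log2 fold change (GIF/ATP4B-DTR over GIF-DTR) was 0.00 over all genes, -1.55 over those that fell and 1.03 over those that rose. At an unadjusted p under 0.05 were 2729 genes (19.5%), the share to read beside the unadjusted counts of lists below. DESeq2 called 7.97% of all genes, 5.48% lower and 2.50% higher, the shares to read beside its counts. Without overlap between the lines were 2099 genes lower (15%) and 1509 genes higher (10.8%), and each of the 307 calls was among them.

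A pair of facts about the libraries bear on every value below. GIF-DTR replicate 1 stood apart in genes of the gland base and the stroma. Its summed CPM over 15 smooth muscle genes was 3742, against 1024 and 682 in replicates 2 and 3, and over 16 chief cell genes it was 28440, against 6265 and 7183. The lines also differed in Y-linked expression, although the labels state no sex. Ddx3y lay at 0.0837 CPM or less in the GIF-DTR samples and between 44.8 and 55.8 CPM in the GIF/ATP4B-DTR samples. Within these 6 samples what goes with the line cannot be told apart from what goes with Y-linked expression. In ATP4B-DTR, the line with the parietal construct alone, replicate 1 had 54.6 CPM of Ddx3y, replicate 2 had 0 and replicate 3 had 0.0426. With a Y-linked index as covariate over the 9 samples of the 3 lines, 3 genes passed, of which Lpl and B4galnt2 were lower as in the comparison without it. The index hardly varied within GIF-DTR or within GIF/ATP4B-DTR, so its effect was set mainly by ATP4B-DTR replicate 1 against replicates 2 and 3. Every value given with the index below rests largely on that contrast.

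The targeted genes were examined first. Atp4b (GRCm38 chr8:13386205-13396825) was measured at 3741, 2229 and 2936 CPM in GIF-DTR replicates 1 to 3 and at 164, 487 and 255 CPM in GIF/ATP4B-DTR replicates 1 to 3. The samples of the lines did not overlap, and the fall was 9.8-fold (log2 -3.30 ± 0.42 SE, n = 3 per line, edgeR adjusted p = 0.0101). Gif, targeted in both lines, was measured at 70.6, 186 and 207 CPM in GIF-DTR and at 226, 87.1 and 75.7 CPM in GIF/ATP4B-DTR. These ranges overlapped (log2 -0.25 ± 0.53, edgeR adjusted p = 0.821). In ATP4B-DTR, whose construct is not named for chief cells, Gif lay at 863, 349 and 777 CPM, above all 6 samples of the other lines. The ATP4B-DTR values were scaled together with the 6 samples and are given as levels with no test.

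Promoters of genes that moved in each direction are shown because their windows were searched for the sites of factors known in these cells. Each is the 250 bases before the RefSeq start site in GRCm38.p6, read 5′ to 3′ on the gene's strand, with the match in capitals where there is one.
Atp4a, chr7:30711959-30712208, plus strand: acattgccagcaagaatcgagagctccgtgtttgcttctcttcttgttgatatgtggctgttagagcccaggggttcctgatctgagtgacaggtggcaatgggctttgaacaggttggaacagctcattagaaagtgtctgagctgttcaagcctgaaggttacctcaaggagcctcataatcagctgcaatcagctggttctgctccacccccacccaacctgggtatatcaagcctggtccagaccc
Hamp2, chr7:30924182-30924431, minus strand: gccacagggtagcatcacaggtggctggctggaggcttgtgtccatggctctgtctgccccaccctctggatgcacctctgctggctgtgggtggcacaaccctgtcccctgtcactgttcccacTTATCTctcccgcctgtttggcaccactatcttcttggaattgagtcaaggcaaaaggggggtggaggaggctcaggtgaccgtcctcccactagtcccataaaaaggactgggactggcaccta
Slc7a11, chr3:50443614-50443863, minus strand: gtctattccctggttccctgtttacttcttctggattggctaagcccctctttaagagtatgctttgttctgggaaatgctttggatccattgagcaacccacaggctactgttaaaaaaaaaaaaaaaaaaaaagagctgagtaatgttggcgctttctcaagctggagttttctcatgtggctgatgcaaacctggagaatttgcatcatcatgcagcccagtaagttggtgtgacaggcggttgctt
Gclm, chr3:122245307-122245556, plus strand: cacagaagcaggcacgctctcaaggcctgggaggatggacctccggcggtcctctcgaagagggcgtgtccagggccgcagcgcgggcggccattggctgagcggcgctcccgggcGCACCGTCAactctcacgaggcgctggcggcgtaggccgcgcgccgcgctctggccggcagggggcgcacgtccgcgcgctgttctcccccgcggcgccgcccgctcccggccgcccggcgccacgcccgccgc
Atp4a encodes the catalytic pump subunit and Hamp2 a relative of hepcidin, and both fell. Slc7a11, the cystine transporter, and Gclm, the regulatory subunit of the enzyme that starts glutathione synthesis, rose. The capitals in Hamp2 mark TTATCT, the reverse complement of the GATA site AGATAA, and those in Gclm mark GCACCGTCA, a reverse-strand match of the antioxidant response core TGACNNNGC. Their first bases lie at -125 and -134 from the start site. On either strand, AGATAA was found in 9.5% of 210 promoters of genes that fell and in 11.4% of the 27025 genes in the table. AAGGTCA, a site of the estrogen-related receptors, was found in 5.2% of the promoters of genes that fell and in 4.7% of all. The antioxidant response core was found in 7 of 32 promoters of genes that rose (21.9%), in 11% of those that fell and in 11.5% of all. A match in such a window is a description of letters, not a binding site. Atp4b and Slc26a7 had no entry.

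Among parietal genes, those of acid secretion and ion transport held 6 of 19 tested members that fell (1.87% of all genes fell), 1 that rose and 12 that did not pass, with a median log2 fold change of -0.93 against 0.00 over all genes. This and the other gene lists were chosen with earlier results of these data known, so a list's direction is not independent evidence. Slc26a7, a chloride-bicarbonate exchanger of the basolateral membrane (chr4:14502430-14621805), had 663, 582 and 450 counts in GIF-DTR and 0, 7 and 13 in GIF/ATP4B-DTR. In CPM these were 33.8, 23.9 and 18.8 against 0, 0.311 and 0.485, and the fall was 92.2-fold (log2 -6.53 ± 0.61, edgeR adjusted p = 0.00533). GIF/ATP4B-DTR replicate 1 had no count of this gene, and the log2 value was -5.93 without it and -7.30 without GIF/ATP4B-DTR replicate 3, both past the threshold. With the Y-linked index it was -4.93 and did not pass (edgeR adjusted p = 0.555). Atp4a (chr7:30712209-30725534) was measured at 5987, 4996 and 5628 CPM in GIF-DTR and at 737, 1788 and 1213 CPM in GIF/ATP4B-DTR. The highest sample of the double line lay well under the lowest of GIF-DTR, with a 4.4-fold fall (log2 -2.15 ± 0.31, edgeR adjusted p = 0.0132).

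Kcne1, Clic6 and Slc4a2 of the transport list also fell. Kcne1, a potassium channel beta subunit, was measured at 25.3, 13.7 and 14.6 CPM in GIF-DTR and at 1.00, 2.27 and 2.39 CPM in GIF/ATP4B-DTR (log2 -3.24 ± 0.38, edgeR adjusted p = 0.00679). Clic6, a chloride channel family protein, had 987, 781 and 911 CPM against 213, 388 and 323 CPM (log2 -1.54 ± 0.22, edgeR adjusted p = 0.0143). Slc4a2, the anion exchanger that passes bicarbonate to the blood, had 423, 406 and 494 CPM against 122, 180 and 171 CPM (log2 -1.48 ± 0.17, edgeR adjusted p = 0.00669). None of the 3 overlapped between the lines. Kcnj16, Kcnq1, Kcne2 and Slc26a9, channels and a transporter of the secretory membrane, also had separate groups but did not pass, with log2 values of -1.25, -0.93, -1.12 and -0.77 and adjusted p between 0.0619 and 0.156 by edgeR with Benjamini-Hochberg adjustment.

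Several transport genes did not fall. Slc9a4, a sodium-proton exchanger, had a log2 value of 0.22, Car2 (carbonic anhydrase, which surface cells also make) 0.30 and Kcnj15 -0.29, and none of them passed. Kcnk1, a leak potassium channel, rose from 46.3, 42.7 and 41.2 CPM to 76.7, 79.2 and 77.9 CPM (log2 0.85 ± 0.11, edgeR adjusted p = 0.00887). The 13 genes of the canaliculus and its vesicle traffic had no call in edgeR (4 at an unadjusted p under 0.05, 3 past the threshold in DESeq2, 2 lower and 1 higher, where it called 7.97% of all genes) and a median of 0.16. Ezr, the linker of the canalicular membrane to actin, stood at -0.24 ± 0.15, and Trim50 at -1.33 ± 0.31 with separate groups and an edgeR adjusted p of 0.0728. Their summed level overlapped, at 2872, 3094 and 2690 CPM in GIF-DTR and at 3039, 2699 and 3028 CPM in GIF/ATP4B-DTR.

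Of 7 receptors tested that drive or brake acid secretion, 3 fell (1.87% of all genes did) and 1 had a value above 0, with a list median of -0.93. Hrh2, the histamine receptor, was measured at 31.1, 32.0 and 30.7 CPM in GIF-DTR and at 6.40, 14.3 and 12.2 CPM in GIF/ATP4B-DTR (log2 -1.51 ± 0.26, edgeR adjusted p = 0.0286). Chrm3, the muscarinic receptor, went from 14.9, 14.0 and 14.9 CPM to 8.62, 7.16 and 7.12 CPM (log2 -0.93 ± 0.16), and Sstr2, the inhibitory somatostatin receptor, from 11.5, 9.56 and 9.54 CPM to 4.73, 4.67 and 3.69 CPM (log2 -1.22 ± 0.20). The GIF-DTR samples of these genes lay close together and none overlapped with the double line. Cckbr, the gastrin receptor, had separate groups (3.82, 6.57 and 9.29 CPM against 3.10, 3.78 and 3.58 CPM) but did not pass (log2 -0.91 ± 0.34, edgeR adjusted p = 0.196).

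The deepest falls among parietal regulators and secreted factors were in genes of low or moderate level. Hamp2 (chr7:30922372-30924681) was measured at 83.6, 43.0 and 47.1 CPM in GIF-DTR and at 0.795, 2.09 and 1.87 CPM in GIF/ATP4B-DTR, a 36.4-fold fall (log2 -5.19 ± 0.41, edgeR adjusted p = 0.00301). Gpr155, a lysosomal membrane protein (chr2:73341506-73386572), was measured at 84.2, 29.7 and 39.1 CPM against 1.59, 3.16 and 1.72 CPM, a 23.8-fold fall (log2 -4.57 ± 0.50, edgeR adjusted p = 0.00872). GIF-DTR replicate 1 was the highest sample of both genes, and without it the log2 values were -4.82 and -4.00, both still past the threshold. Esrrb, an orphan nuclear receptor, had 7.95, 3.94 and 4.64 CPM against 0.209, 0.622 and 0.410 CPM (log2 -3.72 ± 0.49, edgeR adjusted p = 0.00931). Its relative Esrrg, the form known from parietal cells, stood at -0.51 ± 0.19 and did not pass. Vegfb, a growth factor of the VEGF family, fell by 1.51 on the log2 scale. The list had 4 of 21 tested members that fell, against 1.87% of all genes, and a median of -0.51.

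**Figure D1:**
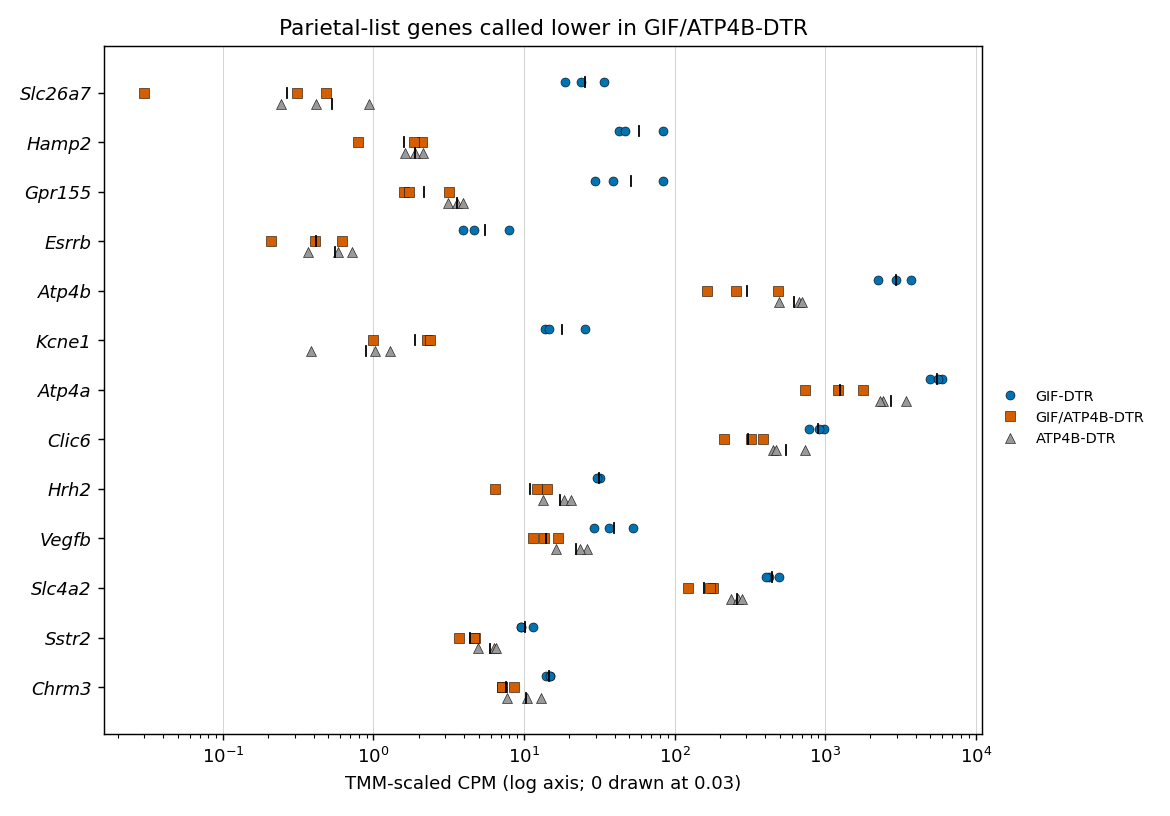
TMM-scaled CPM on a log axis of the 13 parietal-list genes that fell, one row per gene, with circles for the 3 GIF-DTR samples, squares for the 3 GIF/ATP4B-DTR samples, triangles for the 3 ATP4B-DTR samples and a vertical tick at each line's mean. In every row the squares lie to the left of the circles, from Slc26a7 at the top (92.2-fold) to Chrm3 at the bottom (log2 -0.93), and the triangles lie to the left of the circles as well.

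Over the parietal lists together, 13 of 60 tested genes fell (21.7%, against 1.87% of all genes), 1 rose, and the median was -0.45. The calls were not equally firm. Slc26a7, Hamp2, Gpr155, Kcne1 and Slc4a2 stayed past the threshold whichever of the 6 samples was left out, which was 5 of the 13. Without GIF/ATP4B-DTR replicate 3, Atp4b (log2 -3.15, adjusted p = 0.0675) and Atp4a (log2 -2.09, adjusted p = 0.0873) no longer passed in edgeR with Benjamini-Hochberg adjustment, although the folds hardly moved. Hrh2, Chrm3 and Sstr2 lost their calls when any GIF-DTR sample or GIF/ATP4B-DTR replicate 3 was left out (adjusted p between 0.068 and 0.155 in edgeR). Without GIF-DTR replicate 1 the transport list had 6 members that fell (0.939% of all genes did) and a median of -0.86. Without GIF/ATP4B-DTR replicate 3 it had 3 that fell (0.356% of all genes did), 0 that rose and a median of -0.90, with Clic6 also not past the threshold (adjusted p = 0.0827 in edgeR).

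Of the macrophage, monocyte, neutrophil and MHC class II genes, 9 of 37 tested fell (24.3%, against 1.87% of all genes), with a median of -1.62. Csf1r, the receptor that macrophages need for survival, was measured at 9.74, 9.44 and 13.1 CPM in GIF-DTR and at 1.67, 2.76 and 2.35 CPM in GIF/ATP4B-DTR, a 4.7-fold fall (log2 -2.25 ± 0.27, edgeR adjusted p = 0.00688). C1qb, a subunit of the complement starter C1q made by tissue macrophages, had 21.2, 20.6 and 22.8 CPM against 3.89, 8.58 and 4.89 CPM (log2 -1.90 ± 0.28, edgeR adjusted p = 0.0143). The other chains, C1qa and C1qc, fell by 1.68 and 1.62, the antibody receptor gene Fcgr3 fell by 1.84, Adgre1 (F4/80) fell by 1.71 and Laptm5 fell by 1.31 on the log2 scale. GIF-DTR replicate 1 was the highest of the GIF-DTR samples in C1qc and Laptm5, and replicate 3 was in Csf1r, C1qa, C1qb, Fcgr3 and Adgre1.

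Of 26 macrophage and monocyte genes tested, 7 fell (1.87% of all genes did), 25 had a value below 0 and 21 had separate, lower groups (15% of all genes), with a median of -1.62. The members that did not pass included Lyz2 (lysozyme, log2 -1.64, adjusted p = 0.0697), Tyrobp (log2 -1.64, adjusted p = 0.0783) and Cd68 (log2 -0.06, adjusted p = 0.936), all by edgeR with Benjamini-Hochberg adjustment. Cd14, the endotoxin co-receptor, was the member above 0 (log2 0.56, not past). Of the 10 dendritic and MHC class II genes tested, H2-Aa and H2-Eb1 fell, by 1.98 and 1.91, and the median was -1.61. H2-Eb1 was measured at 18.6, 13.6 and 20.9 CPM in GIF-DTR and at 3.14, 6.58 and 4.44 CPM in GIF/ATP4B-DTR. Of the 9 calls, 0 stayed past the threshold whichever sample was left out. The macrophage list had 0 calls in edgeR without GIF/ATP4B-DTR replicate 3, 1 without GIF-DTR replicate 3, 2 without GIF-DTR replicate 2 or GIF/ATP4B-DTR replicate 1, 5 without GIF-DTR replicate 1 and 7 without GIF/ATP4B-DTR replicate 2. Over all genes the share called lower in these fits also moved, to 0.356% without GIF/ATP4B-DTR replicate 3, 0.620% without GIF-DTR replicate 3, 1.15% without GIF-DTR replicate 2, 1.03% without GIF/ATP4B-DTR replicate 1, 0.939% without GIF-DTR replicate 1 and 1.78% without GIF/ATP4B-DTR replicate 2. The median of the macrophage list stayed between -1.29 and -1.85 over the 6 omissions. In DESeq2 18 of its members were past the threshold and lower, as were 5.48% of all genes. With the Y-linked index the macrophage median was -1.29 and the MHC class II median -1.33. Neither list then had a call, where 2 of 14332 genes were lower. Csf1r stood at -1.55, C1qb at -1.21, H2-Aa at -1.36 and H2-Eb1 at -1.29 with the index, and Adgre1 at -1.87. Over all 11 samples 3 macrophage and 0 MHC class II genes were called lower, beside 327 of 14901 genes tested.

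Siglec1, Stab1, Fcrls and Ly86, genes known from macrophages that were on no list and were picked after their values were seen, fell by 2.96, 1.38, 1.98 and 2.08 on the log2 scale. Genes off the lists were not picked in this way for vessels or other stromal classes, so these names do not set the classes apart. Apoe, a lipoprotein that macrophages and other cells make, was measured at 96.5, 129 and 138 CPM in GIF-DTR and at 47.2, 69.3 and 34.0 CPM in GIF/ATP4B-DTR (log2 -1.27 ± 0.26, edgeR adjusted p = 0.0478). Kit, a growth factor receptor of mast and pacemaker cells, fell by 2.05 on the log2 scale (36.1, 23.4 and 27.9 CPM against 8.54, 6.85 and 5.74 CPM). Kit stands in the mast cell list, yet 7 of the 9 mast genes tested had values above 0, among them the proteases Mcpt1 (1.77) and Mcpt2 (1.40), which did not pass. Ighm, the heavy chain of IgM, was the only other gene on the lymphoid and mast lists that fell (log2 -2.27 ± 0.45). With the Y-linked index Ighm stood at -1.23 and Kit at -2.49, and neither passed. Ighm lost its call whichever sample was left out (adjusted p between 0.0876 and 0.195 in edgeR), and Kit in none of these omissions.

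Over fibroblast, smooth muscle, pericyte, vessel, nerve, niche signal and collagen genes, 5 of 139 tested fell (3.60%, against 1.87% of all genes), with a median of -1.13. All 15 smooth muscle genes had values below 0, but 0 passed in edgeR or DESeq2, 0 had an unadjusted p under 0.05 in edgeR and 0 had separate groups. Myh11, the smooth muscle myosin, was measured at 655, 211 and 115 CPM in GIF-DTR and at 48.1, 143 and 149 CPM in GIF/ATP4B-DTR. GIF-DTR replicate 1 was the one high sample, and the other 5 overlapped. All 24 fibroblast genes were below 0 with no call in edgeR (14 at an unadjusted p under 0.05, 5 past the threshold in DESeq2, which called 5.48% of all genes lower) and 7 with separate groups, where 15% of all genes had separate, lower groups. Col1a1, the main fibrillar collagen chain, had 157, 40.0 and 59.9 CPM against 10.6, 53.7 and 27.6 CPM.

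Without GIF-DTR replicate 1 the median of the smooth muscle list went from -1.21 to -0.15, that of the pericyte list from -1.34 to -0.31, that of the collagens from -1.27 to -0.55 and that of the fibroblast list from -1.38 to -0.72. The endothelial median went from -2.0 to -1.36, the macrophage median stayed at -1.62, and the parietal transport median went from -0.93 to -0.86. With the Y-linked index the endothelial median was -1.21. Of 18 endothelial genes tested, 16 had separate groups (15% of all genes, lower). In edgeR 15 had an unadjusted p under 0.05 (19.5% of all genes), and DESeq2 called 10 lower (5.48% of all genes). After adjustment 1 passed in edgeR (1.87% of all genes fell), Flt1, a VEGF receptor, at 9.69, 3.24 and 4.85 CPM against 0.377, 1.07 and 0.970 CPM (log2 -2.87 ± 0.54, edgeR adjusted p = 0.0369). Flt1 lost its call in 5 of the 6 omissions of 1 sample, all but that of GIF-DTR replicate 2 (adjusted p between 0.0651 and 0.149 in edgeR), and stood at -2.32 without GIF-DTR replicate 1 and at -1.20 with the Y-linked index. Plvap, a protein of vessel wall pores, had 39.6, 14.9 and 20.8 CPM against 1.46, 6.62 and 4.36 CPM and did not pass (log2 -2.59 ± 0.57, edgeR adjusted p = 0.0727). Its groups were separate.

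Cxcl12, a chemokine of stromal cells, fell by 2.24 on the log2 scale and lost its call in 5 of the 6 omissions, all but that of GIF-DTR replicate 2 (adjusted p between 0.0769 and 0.146 in edgeR). With the Y-linked index it stood at -1.60. The collagens that fell were not those that fibroblasts are known for. Col4a3, a basement membrane chain, was measured at 5.61, 7.10 and 6.44 CPM in GIF-DTR and at 0.293, 0.534 and 0.112 CPM in GIF/ATP4B-DTR (log2 -4.36 ± 0.49, edgeR adjusted p = 0.00645). Without GIF/ATP4B-DTR replicate 2 its log2 value was -4.96. GIF-DTR replicate 1 was the lowest of its line for this gene, unlike the fibroblast and muscle genes. Col4a4, its neighbour and partner chain, fell by 3.88 (5.40, 3.12 and 3.39 CPM against 0.209, 0.445 and 0.149 CPM), and Col27a1, a cartilage-type chain, fell by 0.86. Of the 5 stromal calls, only that of Col4a3 stayed past the threshold whichever sample was left out. Col27a1 lost its call in all 6 omissions (adjusted p between 0.0511 and 0.18 in edgeR) and Col4a4 without GIF/ATP4B-DTR replicate 3 (adjusted p = 0.0623). Col4a1, a chain of vessel basement membranes, stood at -1.37 ± 0.49 and did not pass. Whether fewer myeloid and stromal cells were sampled with the mucosa was not tested.

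**Figure D2:**
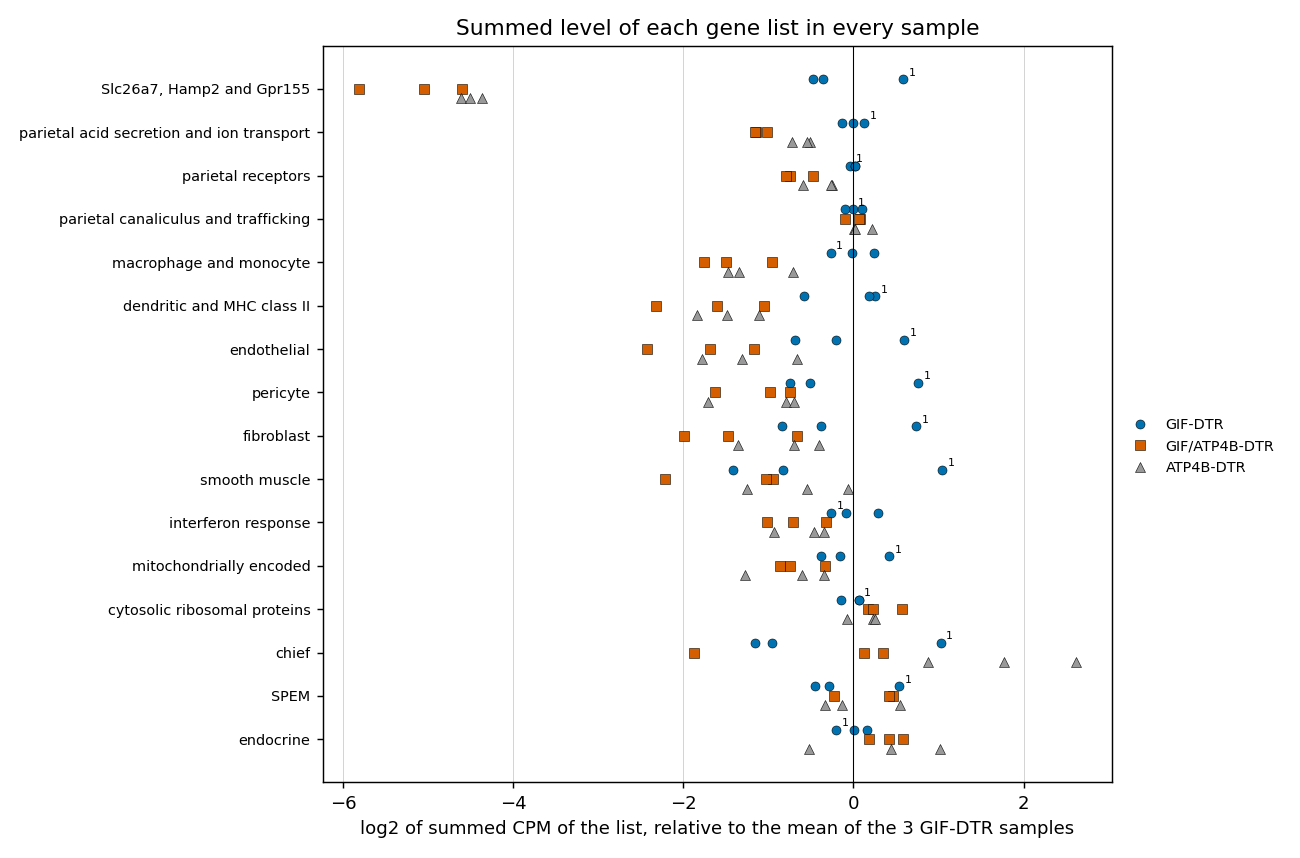
Summed CPM of each gene list in every sample, as log2 relative to the mean of the 3 GIF-DTR samples, with circles for GIF-DTR (replicate 1 marked), squares for GIF/ATP4B-DTR and triangles for ATP4B-DTR. Parietal transport, macrophage, MHC class II and endothelial levels separate the squares from all circles, as do the pericyte levels by a narrow margin. The smooth muscle and fibroblast levels of the squares overlap the circles other than replicate 1.

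The macrophage list summed to 224, 267 and 319 CPM in GIF-DTR and to 79.9, 139 and 95.3 CPM in GIF/ATP4B-DTR. The parietal transport list summed to 15897, 13243 and 14575 CPM against 6579, 7184 and 6560 CPM. Neither overlapped, and GIF-DTR replicate 1 was the lowest GIF-DTR sample for the macrophage list. The fibroblast list summed to 1463, 488 and 674 CPM against 220, 553 and 315 CPM, which overlap, as do the smooth muscle and collagen sums. The endothelial list summed to 153, 62.9 and 88.1 CPM against 18.8, 44.9 and 31.4 CPM, and the pericyte list to 158, 55.4 and 65.5 CPM against 30.1, 55.3 and 47.0 CPM. These 2 stromal sums did not overlap, although the pericyte sums of GIF-DTR replicate 2 and GIF/ATP4B-DTR replicate 2 were nearly equal.

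The 3 ATP4B-DTR samples, outside the comparison, give the level of these genes in a line with the parietal construct alone. They are set beside the same GIF-DTR values, so no test is given. All 13 parietal genes that fell lay below all GIF-DTR samples in all 3 ATP4B-DTR samples, as did 9 of 9 macrophage and MHC class II genes and 4 of 5 stromal genes. Among all 262 genes that fell this held for 204 (77.9%), and among all genes tested for 10.5%. The genes were chosen against the same GIF-DTR samples, so nothing is read from these counts. ATP4B-DTR replicates 2 and 3, whose Ddx3y was at or near 0, lay below all GIF-DTR samples in the same 13 parietal and 9 macrophage and MHC class II genes. This also held for 213 of the 262, and for 15.7% of all genes tested. Nothing is read from these counts either, for the same reason, and whether the falls go with Y-linked expression was not tested. Hamp2, for example, had 2.14, 1.89 and 1.62 CPM in ATP4B-DTR and Csf1r had 3.36, 3.37 and 7.03 CPM. Atp4a, at 2410, 2302 and 3447 CPM, lay between the lines. The median ATP4B-DTR level of the 13 parietal genes lay 1.05 log2 units under GIF-DTR and 0.72 above the double line, and 11 of them were nearer to the double line. For the 9 macrophage and MHC class II genes the median lay 1.51 under GIF-DTR and 0.26 above the double line, and all 9 were nearer to it. Of all 262 genes that fell, 170 were nearer to the double line, and all were chosen as low against the same GIF-DTR samples. The difference between these classes was not tested.

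**Figure D3:**
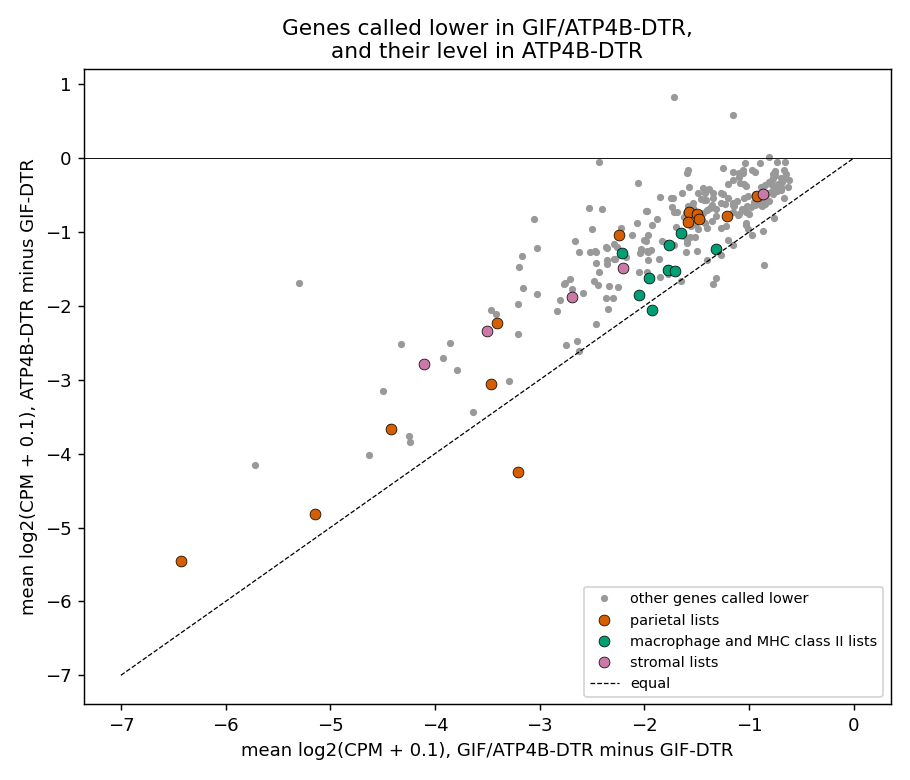
Each point is one of the 262 genes that fell, with its mean log2(CPM + 0.1) in GIF/ATP4B-DTR minus GIF-DTR on the horizontal axis and in ATP4B-DTR minus GIF-DTR on the vertical axis. The axes share the GIF-DTR samples, so the slope is not a result, and parietal, macrophage and stromal genes alike lie under 0 on the vertical axis.

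Most genes that fell, 229 of 262, were on no list. The genes that follow are the lowest folds among genes with at least 5 CPM in the higher line and a plain symbol. Genes outside these limits fell as far, such as Pla2g4f, a phospholipase, at log2 -4.96, picked after its value was seen. B4galnt2, a glycosyltransferase of blood group type sugars, had 181, 193 and 206 counts in GIF-DTR and 3, 1 and 1 in GIF/ATP4B-DTR, a ratio of 125 with a 95% interval of 53.3 to 387 for counting error only. It stayed past the threshold in the 16 alternatives that tested it (edgeR adjusted p = 0.0181 with the Y-linked index). The filter of 10 counts in every sample left it out, and its log2 value of -6.86 was -7.52 without GIF/ATP4B-DTR replicate 1. Prlr, the prolactin receptor, was measured at 13.1, 12.3 and 12.3 CPM in GIF-DTR and at 0.586, 0.667 and 0.373 CPM in GIF/ATP4B-DTR (log2 -4.53 ± 0.27, edgeR adjusted p = 0.000611). Apoa1, the main protein of high-density lipoprotein, fell 20.1-fold from 2049, 827 and 1047 CPM to 50.6, 79.6 and 65.3 CPM. Its relative Apoa4 fell by 2.67 on the log2 scale. Apoa1 and Apoa4 were listed as intestinal markers, while the other 6 members tested did not pass: Lct (log2 -2.61, with separate groups), Muc2 (-0.49), Pdx1 (-0.14), Vil1 (0.32), Fabp2 (0.60) and Alpi (0.70). The list median was -0.31.

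The rest of the 15 lowest folds within these limits of level and symbol that are not described above were Dmbx1 (a homeobox factor, -5.11), Amh (anti-Mullerian hormone, -4.34), Kcng4 (a modifier subunit of potassium channels, -3.97), Prnd (a prion protein relative, -3.95), Rnase1 (a secreted ribonuclease, -3.88), Tmprss9 (a membrane serine protease, -3.66) and Amy1 (amylase, -3.63), all as log2 fold changes. Amy1 has near-identical copies and fractional counts in 9 of 11 samples, so its level is less certain. Without GIF/ATP4B-DTR replicate 2 the values of Amh, Dmbx1 and Prnd were -5.02, -6.40 and -4.61, and without replicate 3 that of Dmbx1 was -4.46. With the Y-linked index those of Amh, Dmbx1, Prnd and Prlr were -3.09, -2.0, -2.21 and -3.22, none past the threshold. Of the 15 genes, 10 stayed past the threshold whichever sample was left out, and Amh, Dmbx1, Esrrb, Prnd and Tmprss9 did not.

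Lpl, Cd36 and Slc2a4, which were on no list and were picked after their values were seen, also fell. Lpl, which frees fatty acids from lipoproteins, was measured at 257, 150 and 165 CPM in GIF-DTR and at 17.2, 18.6 and 20.6 CPM in GIF/ATP4B-DTR, a 10.1-fold fall (log2 -3.34 ± 0.22, edgeR adjusted p = 0.000872). Cd36, a fatty acid carrier of the cell surface, had 83.0, 46.4 and 55 CPM against 5.65, 8.31 and 5.48 CPM (log2 -3.25 ± 0.27). Slc2a4, the insulin-responsive glucose transporter, had 41.9, 25.2 and 28.4 CPM against 1.72, 3.69 and 3.47 CPM (log2 -3.42 ± 0.32). The 3 genes had separate groups, with the double line in a narrow low range. Lpl counts were fractional in all 11 samples, so part of its reads was shared. The list of fatty acid oxidation and TCA cycle genes had 0 of 31 members past the threshold in edgeR (4 at an unadjusted p under 0.05) or in DESeq2, and a median of -0.04.

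**Figure D4:**
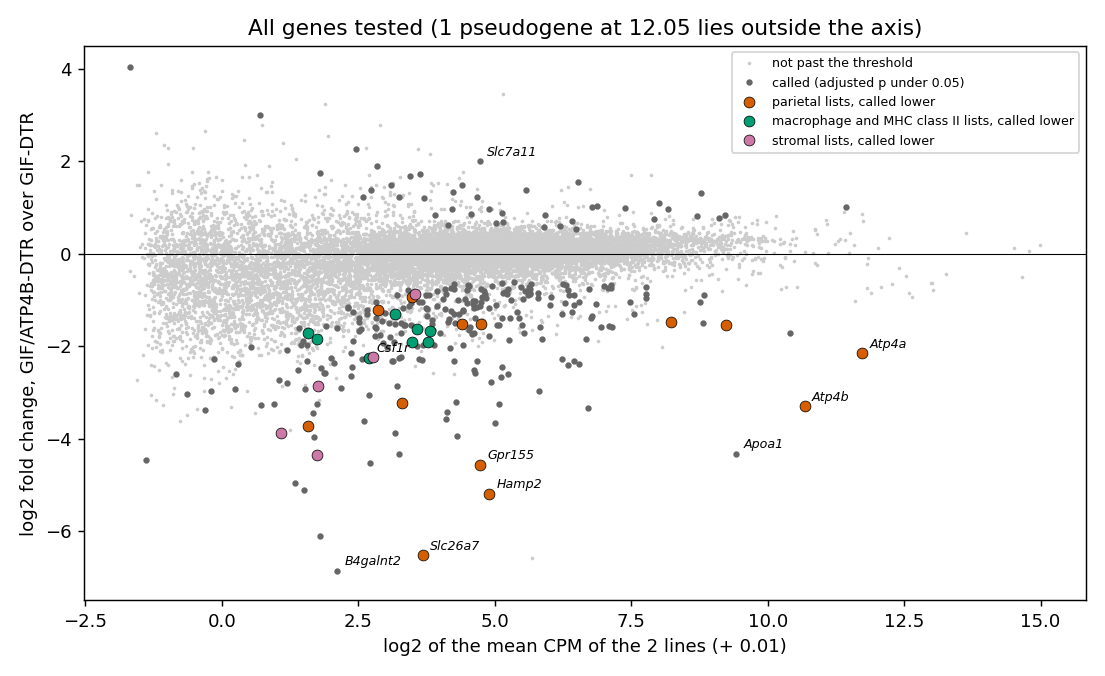
Each point is one gene tested, with the log2 of its mean CPM over the compared lines on the horizontal axis and its log2 fold change (GIF/ATP4B-DTR over GIF-DTR) on the vertical axis. Dark points passed the threshold, and colours mark parietal, macrophage and stromal genes that fell. Parietal genes span the range of levels down to Slc26a7 at -6.53, while the macrophage genes lie between -1.31 and -2.25.

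The 45 genes that rose had a smaller median fold than those that fell, and 25 of them at least doubled, against 206 that fell at least as far. Slc7a11 was measured at 8.46, 15.6 and 7.70 CPM in GIF-DTR and at 49.5, 34.0 and 43.4 CPM in GIF/ATP4B-DTR (log2 2.00 ± 0.28, edgeR adjusted p = 0.0127). It was one of 3 members that rose among 19 tested (0.322% of all genes rose) of the list for spasmolytic polypeptide-expressing metaplasia (SPEM, a repair state of the gland base). The others were Kcne3, a potassium channel subunit (19.3, 27.0 and 32.5 CPM against 96.3, 62.4 and 48.5 CPM), and Gpx2, an epithelial glutathione peroxidase (169, 161 and 208 CPM against 325, 329 and 256 CPM). Kcne3 and Gpx2 lost their calls whichever sample was left out, and Slc7a11 without GIF-DTR replicate 1 (adjusted p = 0.055) or GIF/ATP4B-DTR replicate 3 (adjusted p = 0.066), in edgeR with Benjamini-Hochberg adjustment. Kcne3 and Gpx2 also lost them over 9 and over 11 samples. With the Y-linked index Kcne3 stood at 0.22, Gpx2 at 0.33 and Slc7a11 at 1.88, none past the threshold. Among the 16 members that did not pass were Clu (log2 0.22), Wfdc2 (0.69) and Gkn3 (0.38), and the 4 below 0: Cd74 (-1.69, with separate groups, also on the MHC class II list), Nt5e (-0.45), Sox9 (-0.23) and Olfm4 (-0.13). The list median was 0.45, and 0.08 with the Y-linked index.

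Gclc, Gclm, Srxn1, Hmox1, Gsta2, Gsta3 and Aldh3a1 were among the other genes that rose and were picked after their values were seen. No list of these genes had been written, and related genes that did not pass were not counted. Gclc, the catalytic partner of Gclm, was measured at 133, 192 and 168 CPM in GIF-DTR and at 408, 293 and 344 CPM in GIF/ATP4B-DTR (log2 1.09 ± 0.18, edgeR adjusted p = 0.025). Gclm, whose promoter is printed above, had 110, 111 and 115 CPM against 262, 188 and 219 CPM (log2 1.00 ± 0.14, edgeR adjusted p = 0.0134). Srxn1, which repairs oxidised peroxiredoxins, had 62.5, 91.0 and 64.5 CPM against 146, 141 and 156 CPM (log2 1.02 ± 0.16). None overlapped between the lines. Hmox1 (heme oxygenase) rose by 1.22, Akr1b8 (an aldose reductase relative) by 1.31, Gsta2 and Gsta3 (glutathione transferases) by 1.03 and 0.98, and Aldh3a1 (an aldehyde dehydrogenase) by 0.84 on the log2 scale. Gclm and Gsta2 counts were fractional in all 11 samples.

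Cxcl5, a chemokine under 5 CPM in both lines, rose by 4.05 on the log2 scale. It had 2 counts summed over GIF-DTR and 42 over GIF/ATP4B-DTR, and lost its call in all 6 omissions of 1 sample. Among genes with at least 5 CPM in the higher line and a plain symbol, the highest fold was that of Reg3g, an antibacterial lectin, at 2.24, 2.50 and 0.962 CPM against 11.4, 7.74 and 8.13 CPM (log2 2.26 ± 0.37, edgeR adjusted p = 0.025). With the Y-linked index Reg3g stood at 0.73, and its call was also lost over 9 and over 11 samples. Others of the 15 highest were Pex5l (1.90), Trex2 (an exonuclease, 1.75), Atp6v0d2 (a proton pump subunit of lysosomes, 1.73), Aspa (aspartoacylase, 1.69), St8sia6 (a sialyltransferase, 1.56), Dock2 (1.54), Mogat2 (a lipid acyltransferase, 1.5), Ceacam1 (a cell adhesion molecule, 1.49), Fetub (1.39), Krt79 (a keratin, 1.34) and Tnfsf13 (a cytokine, 1.24), as log2 fold changes. With the Y-linked index Pex5l, St8sia6 and Dock2 stood at 3.01, 2.56 and 2.15 and Aspa at 0.86, none past the threshold. Atp6v0d2 and Krt79 also lost their calls over 9 and over 11 samples. None of the 15 highest genes stayed past the threshold whichever sample was left out: without GIF/ATP4B-DTR replicate 3, 3 genes in all were higher. In ATP4B-DTR, 35 of the 45 genes that rose lay above all GIF-DTR samples in all 3 samples, as did 6.43% of all genes tested. They were chosen against the same GIF-DTR samples, so nothing is read from this count.

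**Figure D5:**
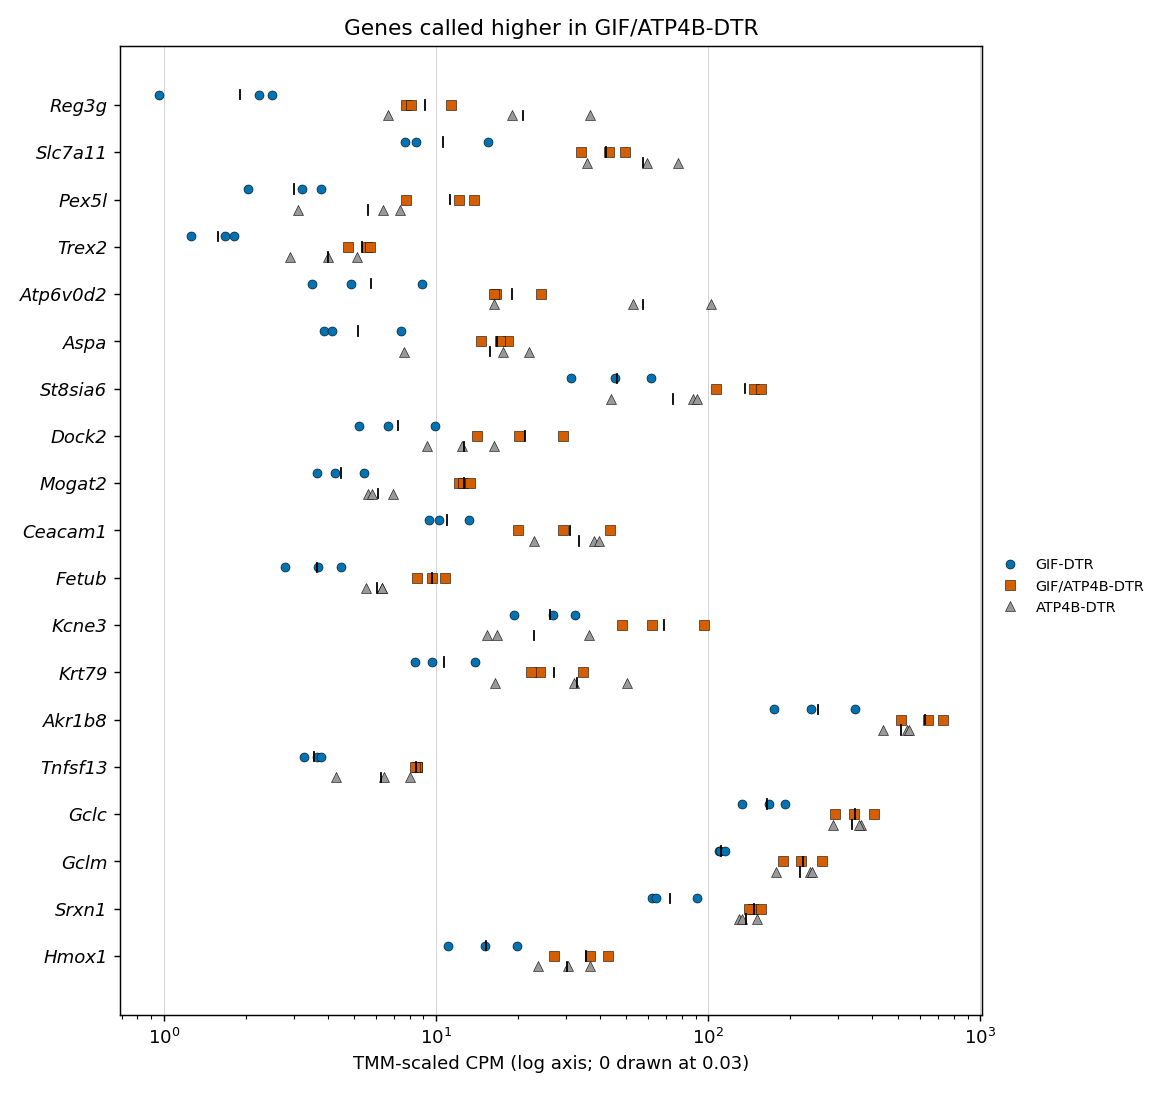
TMM-scaled CPM on a log axis of 19 genes that rose, with circles for GIF-DTR, squares for GIF/ATP4B-DTR, triangles for ATP4B-DTR and a vertical tick at each line's mean. The squares lie to the right of the circles in every row, from Reg3g (log2 2.26) to Gclm (log2 1.00) and Hmox1 (log2 1.22), by less than the distance seen for the deepest parietal genes.

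Chief, mucous neck, pit, endocrine and proliferation lists held no gene past the threshold in edgeR. At an unadjusted p under 0.05 they held 4 of 15, 2 of 10, 3 of 11, 2 of 12 and 4 of 20 genes, beside 19.5% of all genes, and DESeq2 called 1, 1, 2, 0 and 0, beside 7.97% of all genes. The 15 chief cell genes tested had a median of -0.25, with Pgc at 23325, 4819 and 5835 CPM in GIF-DTR and at 2364, 10989 and 11693 CPM in GIF/ATP4B-DTR. These overlapped widely (log2 -0.44 ± 0.77). With the Y-linked index the median of the chief list was -0.90. The 20 proliferation genes had a median of 0.24, the 10 mucous neck genes 0.14 and the 11 pit cell genes -0.02. With the Y-linked index these medians were -0.13, 0.01 and 0.92. Muc6, the neck cell mucin, had separate groups (42.4, 20.6 and 28.6 CPM against 5.78, 9.11 and 15.9 CPM) but did not pass (log2 -1.57 ± 0.40, edgeR adjusted p = 0.0979). The 12 endocrine genes tested had a median of 0.32, and of -0.13 with the Y-linked index. All 15 endocrine genes in the table, tested or not, had a summed level of 910, 1053 and 1172 CPM in GIF-DTR and at 1567, 1186 and 1393 CPM in GIF/ATP4B-DTR, without overlap.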

How the data were processed

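Bulk RNA of gastric corpus mucosa was sequenced in 11 samples of 4 genotypes, and 6 of them (3 GIF-DTR, 3 GIF/ATP4B-DTR, grouped by the genotype label) were compared. The deposited table holds the authors' expected counts per gene, 30.7% of nonzero entries being fractional. The build was mm10 per the submitters' processing notes, and the aligner and quantifier are not given in the sources used here. Libraries were stranded and poly(A)-selected per the labels' protocols. All table columns were mapped to samples by their titles, leaving 0 unused. Of 34866 gene IDs, 34582 were named, and 730 Y-linked IDs were left out.

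Expected counts were rounded, filtered with filterByExpr and scaled by TMM, and the lines were compared with edgeR 4.0.16 (robust quasi-likelihood, R 4.3.3) and Benjamini-Hochberg adjustment. The common biological coefficient of variation was 23.6%. CPM are TMM-scaled, and ATP4B-DTR CPM were scaled over 9 samples. On simulated data for this comparison, with 200 of 13984 genes changed 4-fold, edgeR recovered 84.5% with 7.7% of calls false, and DESeq2 1.42.0 recovered 88.5% with 22.0% false. Named genes are the targets, list members and the 15 highest and 15 lowest folds among called genes with at least 5 CPM in the higher line, separate groups and a plain symbol; others are said to be picked after their values were seen. The genes and lists were chosen with earlier results of these data known. Replicate numbers are in accession order and only name samples. Intervals and floors of 3 counts cover counting error only. The 17 alternatives varied the samples, scaling, filter, test, moderation and Y-linked genes, or left out 1 sample each. Promoters are RefSeq windows (GRCm38.p6).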

Additional observations from a re-analysis of the deposited data

How the results depend on the processing

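The count of genes past the threshold depended on the settings more than the folds did. Against 307 genes (262 lower, 45 higher), no low count filter gave 478 (399 lower, 79 higher), and the DESeq2 Wald test gave 1115 (766 lower, 349 higher), which moved the share of lower calls from 85.3% to 68.7%. The 9 samples of the 3 lines gave 72 genes higher. The Y-linked index as covariate gave 3 genes (2 lower, 1 higher, 66.7% lower), shared 2 of them with the 307, and turned the sign of 4 of the 307. Leaving out 1 sample gave 54 to 304 genes (51 to 256 lower, 3 to 48 higher), lowest without GIF/ATP4B-DTR replicate 3 and highest without GIF/ATP4B-DTR replicate 2. GIF-DTR replicates 1, 2 and 3 left out gave 145, 203 and 97 genes, and GIF/ATP4B-DTR replicate 1 left out gave 166. The count of separate groups then ran from 2351 to 2981 lower and from 2293 to 2948 higher, since fewer samples separate more easily. The cause of the other shifts was not tested. Gif ran from -0.90 without GIF/ATP4B-DTR replicate 1 to 0.06 without GIF-DTR replicate 3 or GIF/ATP4B-DTR replicate 3, and never passed. Of 61 named gene results over 17 alternatives, 763 of 1026 values kept their call and direction, 261 lost the call and 2 changed sign, and 59 genes lost it with the Y-linked index, which moved the fold of 21 of the 61 by over 1.5 times, 16 of them toward no change. Other scalings kept 284 to 299 of the 307 calls. No paired analysis was possible because the titles carry no replicate numbers that the lines share. Genes at or under 0.153 CPM could not be compared at this depth.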

Other observations

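Acadsb, Aldh6a1, Pcca, Mccc1, Mccc2, Bckdhb, Ivd and Hibadh, mitochondrial enzymes known from the breakdown of branched-chain amino acids, were picked after their values were seen. Acadsb was measured at 214, 125 and 130 CPM in GIF-DTR and at 35.1, 30.9 and 23.4 CPM in GIF/ATP4B-DTR (log2 -2.39 ± 0.25, edgeR adjusted p = 0.00533). Aldh6a1 had 255, 182 and 200 CPM against 64.2, 84.8 and 62.6 CPM (log2 -1.59 ± 0.18, edgeR adjusted p = 0.00626). Neither overlapped between the lines. Pcca fell by 1.39, Mccc1 by 1.30, Bckdhb by 1.17, Ivd by 1.06, Hibadh by 1.04 and Mccc2 by 0.71 on the log2 scale. Oxct1, which lets cells use ketone bodies, fell by 1.5 on the log2 scale (816, 501 and 684 CPM against 212, 289 and 207 CPM), and Slc16a7, a carrier of pyruvate and other monocarboxylates, fell by 1.85. No list of these genes had been written and no set was tested.

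Of the 28 interferon response genes on the list, 27 had values below 0 and 1 fell (1.87% of all genes did), Ifi27 (145, 116 and 151 CPM against 31.7, 31.7 and 14.4 CPM). Ifi27l2a and Epsti1, not on the list and picked after their values were seen, fell by 2.0 and 0.90 on the log2 scale. The list median was -0.64, -1.22 with 12 members past the threshold without GIF/ATP4B-DTR replicate 2 (1.78% of all genes were then lower), and 0.25 with the Y-linked index. GIF/ATP4B-DTR replicate 2 was the highest of its line for Ifit1 (47.2, 184 and 40.9 CPM) and Isg15 (45.4, 132 and 37.5 CPM).

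All 78 cytosolic ribosomal protein genes tested had values above 0, with a median of 0.33, 47 with separate groups and 0 past the threshold in edgeR (29 at an unadjusted p under 0.05, 10 past it in DESeq2). Of all genes, 10.8% had separate, higher groups and 19.5% an unadjusted p under 0.05, and DESeq2 called 2.50% of them higher. Under the scalings tried the median ran from 0.30 to 0.35. All 13 mitochondrially encoded genes were below 0, with a median of -0.72, 8 with separate groups (15% of all genes, lower) and 0 past the threshold in edgeR (10 at an unadjusted p under 0.05, 6 past it in DESeq2, which called 5.48% of all genes lower). Without GIF-DTR replicate 1 the median was -0.46. Across 13953 genes, which are not independent replicates, the log2 fold change had a Spearman rho of -0.146 with exon length.

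Gm26992, an X-linked gene model with 8.51, 6.89 and 5.27 CPM in GIF-DTR but 0.0837, 0 and 0.187 CPM in GIF/ATP4B-DTR, was at 0.0487, 6.0 and 10.6 CPM in ATP4B-DTR, the reverse of the Y-linked genes there. The pseudogene Rpl15-ps3 had no count in GIF-DTR. In GIF/ATP4B-DTR it was measured at 11.3, 36.1 and 20.2 CPM, at least 501-fold higher against 3 counts over the group. In ATP4B-DTR it was at 49.0, 4.20 and 0.0426 CPM, highest in replicate 1, the sample with Y-linked expression.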
